A study of Mus musculus with 56 samples.

Results

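The 10 genes described here are the identity genes of Kupffer cells, the resident macrophages of the liver, together with their scavenger and uptake receptors: Clec4f, Vsig4, Timd4, Cd5l, Marco, Adgre1, Folr2, Cd163, Msr1 and Mrc1. They were taken by symbol from a list drawn up with earlier results of these data known, and each matched 1 of the 45513 Ensembl genes of the count table through the GENCODE vM21 annotation. Liver mRNA was sequenced from 56 female APOE*3Leiden.CETP mice in 7 groups of 8 mice. All mice, controls included, carried the human APOE*3-Leiden and CETP transgenes and were fed a Western-type diet with 15% cacao butter and 0.15% cholesterol. They were 9 to 14 weeks of age at the start. The livers were taken after a run-in on this diet and the treatment, at an older age. Control mice received the vehicle, 5% carboxymethyl cellulose. The kinase inhibitor groups received imatinib at 150 mg/kg in 2 gavages daily, nilotinib at 10 or 30 mg/kg daily, or ponatinib at 3 or 10 mg/kg daily, for 16 weeks, and all mice except those on imatinib had a second gavage with vehicle. The remaining group received the vehicle by gavage and L-NAME, an inhibitor of nitric oxide synthase, at 0.12 to 0.20% in drinking water, for a time that the sources used here do not give. The 3 kinase inhibitors all act on the BCR-ABL kinase of chronic myeloid leukemia, and the comparison of treated with control mice asks how they change liver gene expression in this model of dyslipidemia.

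Kupffer cells line the liver sinusoids, where they clear bacteria, dying cells, old erythrocytes and modified lipoproteins from portal blood. They depend on signaling through the receptor Csf1r, and the macrophage transcription factor PU.1 (gene Spi1) acts together with factors of the liver niche to keep their identity genes on. Scavenger receptors are surface proteins that bind a wide range of polyanionic ligands and deliver them to lysosomes, and several are shared between Kupffer cells and the sinusoidal endothelium. In whole liver, where most RNA comes from hepatocytes, a lower level of such a gene can come from fewer cells of the type or from less RNA per cell, and the 2 cannot be told apart.

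The total count on genes was 5342379 to 17996732 reads in 55 libraries and 97473341 in L-NAME library 10, which is 12.9 times the median of all libraries. Levels are given in CPM, read counts scaled by edgeR to a common library size with TMM factors, and between genes in CPM per kilobase of exon. The hepatocyte gene Alb had a median of 87583 CPM in control mice and did not pass the test in any treated group. The share of reads outside genes was 7.97% ± 0.42 (SD, n = 8) in control mice and higher in all 6 treated groups, from 8.53% ± 0.61 with ponatinib 3 mg/kg to 11.0% ± 1.99 with ponatinib 10 mg/kg (exact permutation test, two-sided, adjusted p of 0.0466 at most). It exceeded 12% in 5 libraries. The highest control value was 8.67%, below every mouse given nilotinib, ponatinib 10 mg/kg or L-NAME. For those groups, fits that take the share as a covariate cannot tell it apart from treatment. Its part in the differences from control was not tested otherwise. At an unadjusted p below 0.01, the covariate fits called fewer genes in all 6 comparisons with control. The count was 409 in place of 449 with ponatinib 3 mg/kg and 886 in place of 1997 with L-NAME. No sequencing batch is given in the labels. Control library 52 had the highest level of its group in 6 of the 10 genes, and results that rest on it are given with and without it.

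The genes lie on 9 chromosomes of GRCm38. Cd5l spans chr3:87357881-87371073 on the plus strand, Marco chr1:120474538-120505024 and Clec4f chr6:83644542-83656187 on the minus strand, and Timd4 chr11:46810800-46844332 on the plus strand. Reads were counted over all exons of each gene. The exons of Folr2 share 975 bases with those of the antisense gene Gm10602, and the library kit did not mark strand, so the counts of Folr2 are uncertain. RefSeq start windows of 250 bases before the transcription start (build GRCm38.p6) were found for 8 of the 10 genes, and not for Adgre1 and Msr1. The windows of Cd5l, Clec4f and Marco are shown because most calls below concern these genes. Capitals mark the core of the PU.1 motif, GAGGAA or its reverse complement TTCCTC, and the core of the MAF motif, TGCTGAC or GTCAGCA, was searched as well.
Cd5l (chr3:87357631-87357880, plus strand): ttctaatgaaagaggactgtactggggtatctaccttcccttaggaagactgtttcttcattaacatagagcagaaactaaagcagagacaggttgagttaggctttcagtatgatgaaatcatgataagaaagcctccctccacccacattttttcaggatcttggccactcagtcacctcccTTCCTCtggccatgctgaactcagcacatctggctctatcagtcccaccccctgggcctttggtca
Clec4f (chr6:83656117-83656366, minus strand): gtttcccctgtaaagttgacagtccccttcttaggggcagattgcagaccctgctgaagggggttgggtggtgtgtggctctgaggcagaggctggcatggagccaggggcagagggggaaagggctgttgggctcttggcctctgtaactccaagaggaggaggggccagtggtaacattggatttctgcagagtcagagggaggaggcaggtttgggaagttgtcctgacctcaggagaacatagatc
Marco (chr1:120505025-120505274, minus strand): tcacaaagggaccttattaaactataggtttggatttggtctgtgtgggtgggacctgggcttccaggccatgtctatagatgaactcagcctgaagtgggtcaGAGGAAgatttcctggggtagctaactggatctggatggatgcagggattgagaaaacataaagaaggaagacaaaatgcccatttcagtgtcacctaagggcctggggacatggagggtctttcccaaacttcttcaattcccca
The PU.1 core began 66 bases before the start in Cd5l and 146 bases before it in Marco, and the window of Clec4f held neither core. The windows of 4 of the 8 genes, Vsig4, Cd5l, Marco and Mrc1, held a PU.1 core, and 23.3% of all 32851 RefSeq windows of this length did. The MAF core was found in 1 of the 8, Timd4, against 3.81% of all windows. These matches describe letters in the windows, not sites in use.

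Cd5l, a secreted protein that keeps macrophages from apoptosis, was the most abundant of the 10 genes in control liver, at 292 ± 74.5 CPM per kb (SD, n = 8). Clec4f, a galactose-binding lectin restricted to Kupffer cells in the mouse, followed at 74.2 ± 23.7 CPM per kb, and Vsig4, a receptor for complement C3 fragments, at 35.4 ± 11.0. These 3 genes came in the same order in each of the 8 control mice, with Vsig4 above Adgre1 in all 8 as well (exact paired permutation test, two-sided, p = 0.00781 for each step, the smallest that 8 mice allow). Below them Adgre1, the F4/80 antigen, the folate receptor Folr2 and the collagenous scavenger receptor Marco had means between 13.5 and 14.1 CPM per kb. The Marco mean (SD 24.0) rested on control library 52. The mean was 25.9 CPM with that library and 9.79 CPM without it, so the place of Marco in this order depends on it. Mrc1, the mannose receptor, followed at 7.97 ± 2.82 CPM per kb, and Timd4, a phosphatidylserine receptor for apoptotic cells, at 6.03 ± 4.87. Neighbors from Adgre1 down to Msr1 did not differ beyond their spread (exact paired permutation p from 0.0859 to 0.734). Msr1, the class A receptor for modified lipoproteins, at 3.40 ± 0.76 CPM per kb, was above Cd163, the hemoglobin-haptoglobin receptor, in all 8 control mice (exact paired permutation p = 0.00781). Cd163 was close to the limit of detection, with 0 to 10.3 CPM over all mice and no read in 14 of the 56, 4 of them controls.

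**Figure D1:**
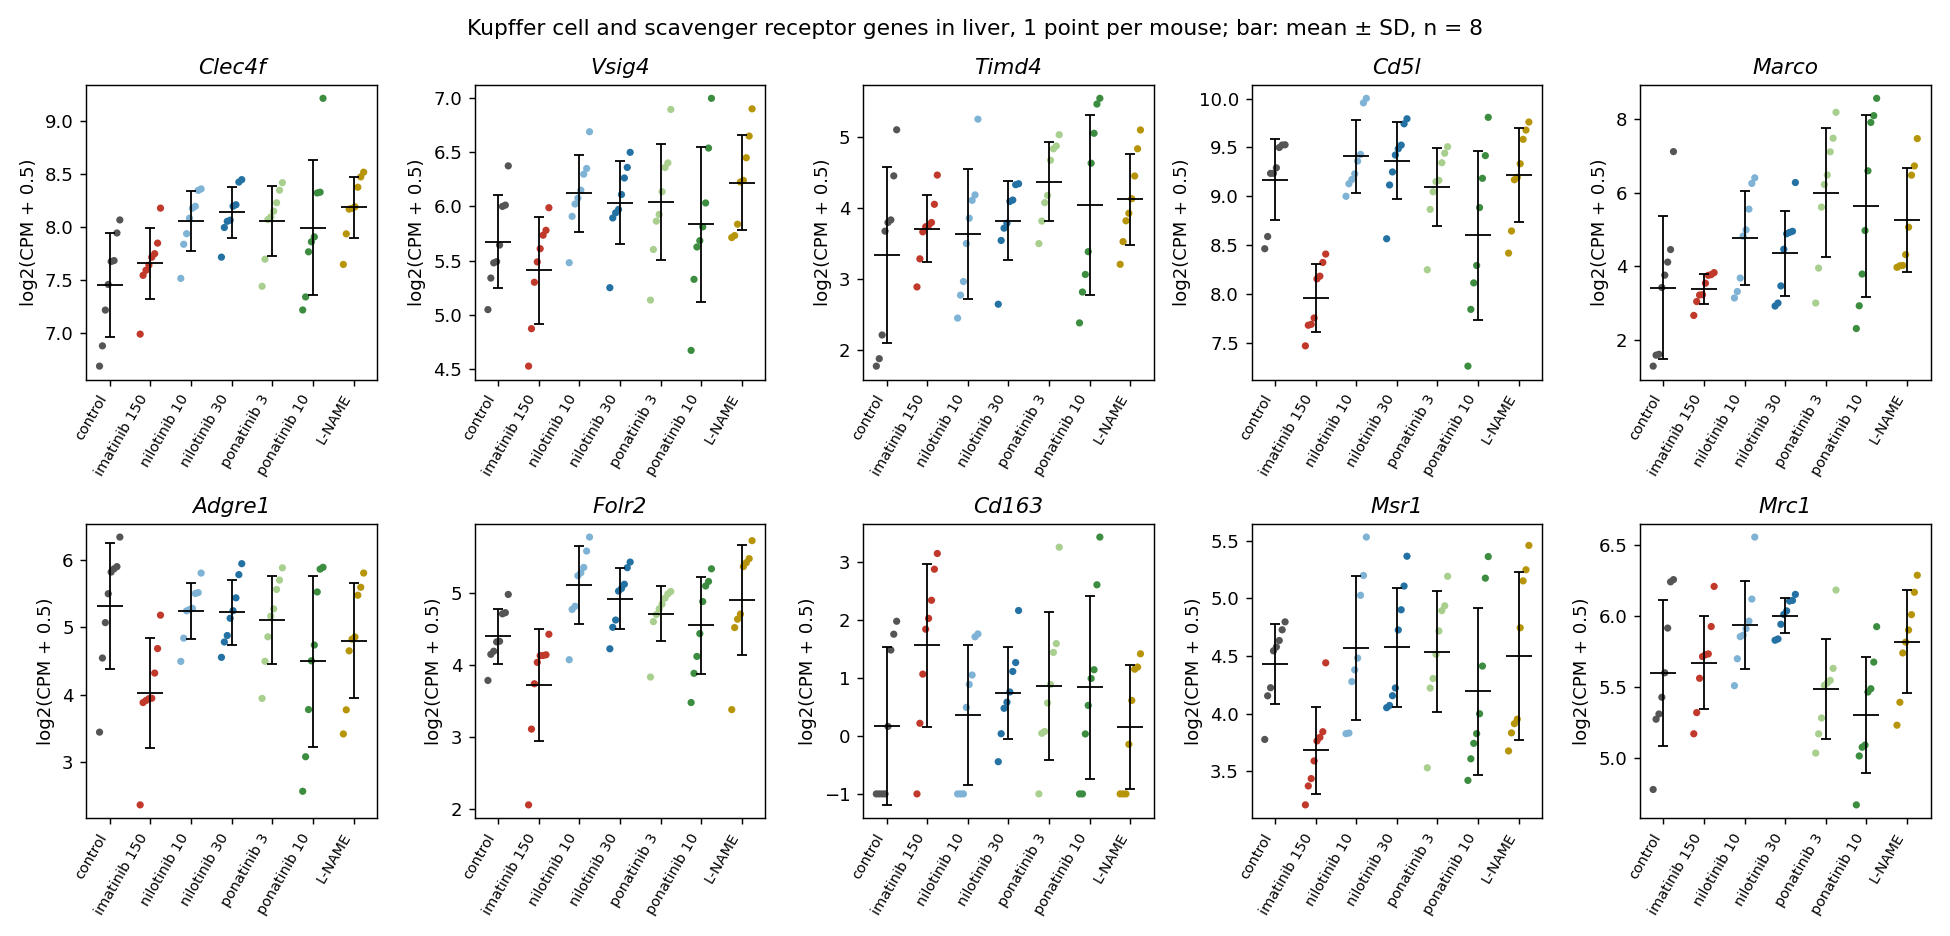
Level of each gene in every mouse as log2(CPM + 0.5), with 1 point per mouse, groups along the x axis with their dose in mg/kg, and the bar at the mean ± SD (n = 8). The 8 imatinib points of Cd5l lie below all control points, and the points of Marco spread widely, from 1.94 to 380 CPM.

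The genes differed in how much they varied from mouse to mouse. Over all 56 mice the highest level was 3.76 times the lowest for Mrc1, 5.23 times for Msr1 and 5.77 times for Clec4f. For Marco it was 196 times, from 1.94 CPM in a control mouse to 380 CPM in a mouse given ponatinib 10 mg/kg. Marco is inducible in macrophages, and it spread widely within the control group too, where 7 mice lay between 1.94 and 21.5 CPM and library 52 at 139 CPM. Its coefficient of variation in control mice was 178%, and 79.5% without library 52, which is below the 128% of the sparsely counted Cd163 in the same 7 mice.

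With imatinib, 3 of the 10 genes fell and none rose at the cut-off of the study's methods, an unadjusted p below 0.01, where 6.06% of the 14314 genes tested fell and 6.85% rose. Cd5l fell 2.34-fold, Adgre1 2.54-fold and Msr1 1.70-fold, while Clec4f and Mrc1 stayed near the control level. The median log2 fold change of the 10 genes was -0.42, against -0.02 over all genes tested, and 6 of the 10 values were negative. Without control library 52 the median was -0.01 and 5 values were negative, and Msr1 no longer passed, which left 2 calls.

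Cd5l ranged from 352 to 737 CPM in control mice, with a median of 614. With imatinib it ranged from 176 to 339 CPM, with a median of 250. All 8 imatinib mice were below every control mouse. The log2 fold change was -1.23 (SE 0.23, edgeR quasi-likelihood test, adjusted p = 0.000245), and the exact permutation test gave p = 0.000155, the smallest that 8 mice against 8 allow. The call held under all 9 alternative settings, with log2 fold changes from -1.26 to -1.13.

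Adgre1, the adhesion receptor that defines mature mouse macrophages, ranged from 10.4 to 80.4 CPM in control mice, with a median of 50.3, and from 4.64 to 35.7 with imatinib, with a median of 14.9. The groups overlapped, and 1 imatinib mouse lay below every control mouse. The log2 fold change was -1.35 (SE 0.36, edgeR adjusted p = 0.01), and the exact permutation test of log2 CPM gave p = 0.0112, just above the cut-off. Msr1 ranged from 13.2 to 27.3 CPM in control mice, with a median of 23.1, and from 8.74 to 21.2 with imatinib, with a median of 12.3. Here 5 of the 8 imatinib mice lay below every control mouse. Its log2 fold change was -0.76 (SE 0.28, edgeR adjusted p = 0.0672). Msr1 did not pass with the share of reads outside genes as a covariate (log2 fold change -0.76) or without control library 52 (-0.74), although its fold change was about as large there.

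Clec4f with imatinib ranged from 127 to 289 CPM, with a median of 204, against 103 to 268 in control mice, with a median of 190. The ranges overlapped almost fully, and the log2 difference was 0.17 (95% interval -0.20 to 0.54). For Mrc1 it was 0.02 (-0.33 to 0.37) and for Timd4 0.01 (-0.80 to 0.81). Folr2 had a log2 difference of -0.59 (edgeR adjusted p = 0.156) and Vsig4 of -0.25 (adjusted p = 0.559), and neither passed. The log2 difference of Cd163 was 1.66 with a 95% interval from -0.36 to 3.68, too wide to read a direction at its depth. Marco ranged from 5.84 to 13.7 CPM with imatinib, with a median of 10.0, near the control median of 11.6. Its log2 difference of -1.34 (adjusted p = 0.264) did not pass and rested on control library 52, since it was 0.10 without that library.

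Clec4f was higher than in control in each of the other 5 treated groups, and it was the only gene of the 10 called in all of them. The counts per group stood as follows beside the share of all genes tested that rose. With nilotinib 10 mg/kg 2 genes rose, Clec4f and Folr2, where 2.32% of all genes did. With nilotinib 30 mg/kg 1 gene rose, Clec4f, where 4.11% did. With ponatinib 3 mg/kg 2 genes rose, Clec4f and Marco, where 1.40% did, and with ponatinib 10 mg/kg the same 2 genes rose, where 8.19% did. With L-NAME 1 gene rose, Clec4f, where 6.66% did. None of the 10 genes fell in these 5 comparisons, where 3.65%, 5.24%, 1.74%, 6.85% and 7.29% of all genes fell in the same order. Their median log2 fold change was 0.26 with each dose of nilotinib, 0.36 and 0.25 with ponatinib 3 and 10 mg/kg, and 0.35 with L-NAME, and the median over all genes lay between -0.01 and 0.03. Without control library 52 the medians of the 10 genes lay between 0.36 and 0.47. At an adjusted p below 0.05, 2 of the 10 genes were called with imatinib, where 10.3% of all genes were. The count was 0 with nilotinib 10 mg/kg, where 1.41% of all genes were called, and 1 with nilotinib 30 mg/kg, where 5.77% were. With ponatinib 3 and 10 mg/kg it was 0 and 2, where 0.0419% and 13.1% were, and with L-NAME it was 1, where 11.8% were.

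The Clec4f level was 183 ± 58.6 CPM in control mice (SD, n = 8). It was 270 ± 49.7 with nilotinib 10 mg/kg, 285 ± 46.0 with nilotinib 30 mg/kg and 296 ± 55.6 with L-NAME. With nilotinib 10 mg/kg 5 of 8 mice were above every control mouse, with nilotinib 30 mg/kg 4 of 8, and with L-NAME 6 of 8. The log2 fold changes were 0.56 with nilotinib 10 mg/kg (edgeR adjusted p = 0.104), 0.64 with nilotinib 30 mg/kg (adjusted p = 0.0282) and 0.69 with L-NAME (adjusted p = 0.00884). These 3 calls held under all 9 alternative settings. Among these settings, the fit with the share of reads outside genes as a covariate cannot tell that share from treatment here.

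With ponatinib 3 mg/kg Clec4f ranged from 173 to 342 CPM, with a median of 278, and with 10 mg/kg from 149 to 593, with a median of 236. At 3 mg/kg 6 of 8 mice were above every control mouse, and at 10 mg/kg 3 of 8, with 1 mouse at 593 CPM far above the rest. The log2 fold change was 0.57 at 3 mg/kg (edgeR adjusted p = 0.261) and 0.61 at 10 mg/kg (adjusted p = 0.0216). The exact permutation test of log2 CPM gave p = 0.0118 and 0.0733, so neither passed by that test. In the fit of the compared groups alone Clec4f did not pass at 10 mg/kg either (log2 fold change 0.61). All of these comparisons use the same 8 control mice and are not independent of each other. The difference between imatinib and nilotinib 30 mg/kg, which does not use the control mice, was -0.47 for Clec4f (95% interval -0.84 to -0.09) with an unadjusted p of 0.015, above the cut-off. In the fit of these groups alone it passed (p = 0.00241), and by the exact permutation test as well (p = 0.0042).

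**Figure D2:**
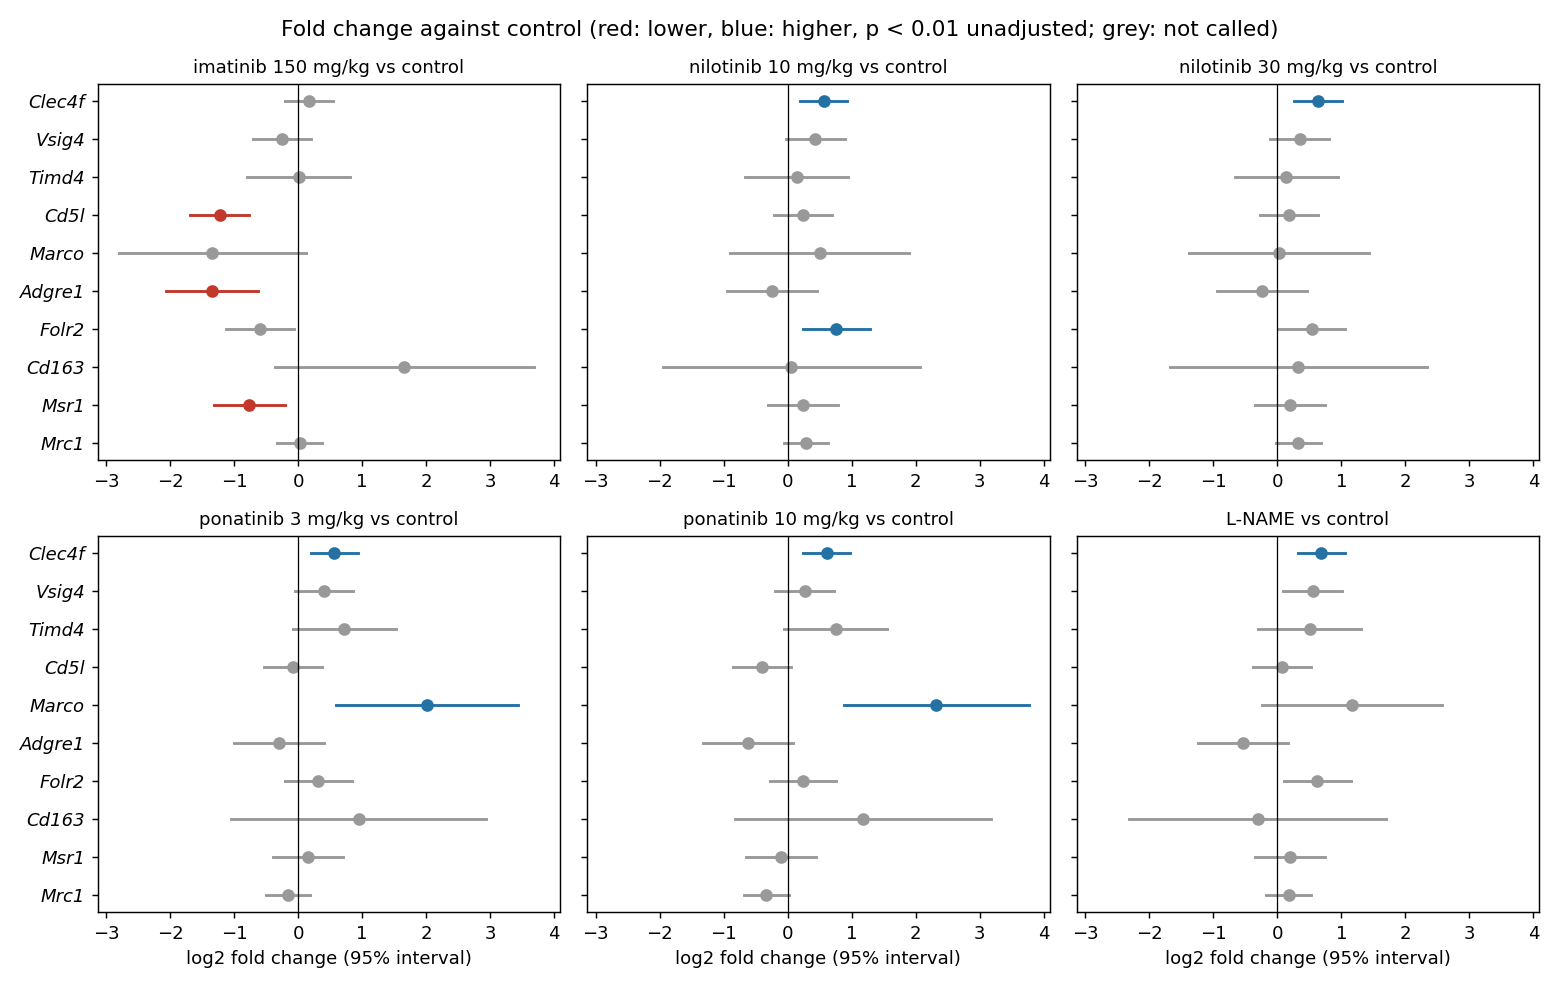
Log2 fold change of each gene against control in the 6 treated groups, with points at the edgeR estimate and lines for the 95% interval. Red genes fell and blue genes rose at an unadjusted p below 0.01, grey genes did not pass. Cd5l, Adgre1 and Msr1 are red in the imatinib panel, and Clec4f is blue in the other 5 panels.

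Marco, which binds bacteria and inhaled or blood-borne particles, rose with both doses of ponatinib, and its spread between mice was large. In control mice it ranged from 1.94 to 139 CPM, with a median of 11.6. With ponatinib 3 mg/kg it ranged from 7.52 to 292 CPM, with a median of 81.8. With 10 mg/kg it ranged from 4.45 to 380 CPM, with a median of 63.7. The groups overlapped over most of their range, with 2 mice at 3 mg/kg and 3 mice at 10 mg/kg above every control mouse.

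The log2 fold change of Marco was 2.01 with ponatinib 3 mg/kg (SE 0.71, edgeR adjusted p = 0.290) and 2.32 with 10 mg/kg (SE 0.72, adjusted p = 0.0227). By the exact permutation test of log2 CPM it was p = 0.0174 and 0.0667, and in fits of each pair of groups alone p = 0.0126 and 0.0166, so neither call held there. Without control library 52 the fold changes grew to 3.45 and 3.77. Marco then also passed with nilotinib 10 mg/kg (log2 fold change 1.94) and with L-NAME (2.60), where with all mice it was 0.50 and 1.17 and did not pass. Timd4 had a median of 12.8 CPM in control mice, 21.3 with ponatinib 3 mg/kg and 17.1 with 10 mg/kg, with log2 differences of 0.72 and 0.75 that did not pass (adjusted p = 0.564 and 0.234). Without control library 52 both passed, at 1.10 and 1.14.

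Within the ponatinib 10 mg/kg group the same mice were among the lowest in several genes. Marco was at 4.45, 7.10, 13.3 and 30.9 CPM in libraries 14, 42, 18 and 35, and at 96.5 to 380 CPM in the other 4. The same 4 libraries were the lowest of the group in Cd5l, Timd4 and Vsig4, and 3 of them were among the 4 lowest in Clec4f, Adgre1, Folr2, Msr1 and Mrc1. In Cd163 only 2 of them were. No wide gap set the 4 apart in Vsig4, with 50.9 CPM in library 18 and 55.7 in the next mouse. In Cd5l the step was wider, from 313 CPM in library 18 to 472 in the next mouse. In Timd4 library 18 was at 9.94 CPM and the next mouse at 24.3. Library 14 was also the one of this group with over 12% of reads outside genes. This is a description of the 8 mice, and no test was run on a split made from these levels.

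Folr2, a folate receptor of resident macrophages, rose with nilotinib 10 mg/kg. It ranged from 13.3 to 30.9 CPM in control mice, with a median of 19.5, and from 16.3 to 54.0 with nilotinib 10 mg/kg, with a median of 37.7, and 5 of the 8 treated mice were above every control mouse. The log2 fold change was 0.76 (SE 0.26, edgeR adjusted p = 0.118). It did not pass with the share of reads outside genes as a covariate (log2 fold change 0.73) or by the exact permutation test (difference 0.71, p = 0.0106), although the values moved little. With nilotinib 30 mg/kg the log2 difference was 0.54 and with L-NAME 0.63, and neither passed with all mice, while the former did in the fit of these groups alone.

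The complement receptor Vsig4 did not pass in any comparison with control. Its median was 47.0 CPM in control mice, 46.4 with imatinib, between 53.3 and 68.8 with nilotinib and ponatinib, and 74.8 with L-NAME. The L-NAME difference was the largest of the 6, at 0.55 (95% interval 0.09 to 1.01), and it passed without control library 52 (0.67) and in the fit of these groups alone (0.55). Mrc1, which in liver is expressed by sinusoidal endothelium as well as Kupffer cells, did not pass against control either, with log2 differences from -0.34 with ponatinib 10 mg/kg to 0.33 with nilotinib 30 mg/kg.

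The drugs were also set against each other directly, which leaves the control mice out of the contrast. Ponatinib and nilotinib share a nominal dose of 10 mg/kg. It is the higher of the ponatinib doses and the lower of the nilotinib doses, and the paper gives different plasma exposures for them. At this dose 2 of the 10 genes were lower with ponatinib, Mrc1 and Cd5l, where 3.07% of all genes tested were lower. Mrc1 ranged from 24.9 to 60.3 CPM with ponatinib, with a median of 38.6, and from 45.1 to 93.8 with nilotinib, with a median of 58.8, and 6 of 8 ponatinib mice lay below every nilotinib mouse. The log2 difference was -0.62 (SE 0.17, edgeR adjusted p = 0.0407) and held under all 9 alternative settings. For Cd5l it was -0.64 (adjusted p = 0.118), and this call was lost under 4 of the 9 settings. Markers of sinusoidal endothelium moved the same way as Mrc1, with a summed level of 97.5 to 298 CPM over 9 markers with ponatinib 10 mg/kg against 336 to 417 CPM with nilotinib 10 mg/kg, none of them at 0 in all mice of a group, and a median of Stab2 of 55.0 against 82.8 CPM. Their part in the Mrc1 difference was not tested. For Clec4f the difference was 0.05 with a 95% interval from -0.33 to 0.42, and for Vsig4 -0.17 (-0.63 to 0.29).

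At nilotinib 30 mg/kg against 10 mg/kg none of the 10 genes passed, where 1.32% of all genes tested did, and at an unadjusted p below 0.05 none passed either. Clec4f differed by 0.08 (95% interval -0.30 to 0.45), Cd5l by -0.05 (-0.50 to 0.40) and Marco by -0.48 (-1.88 to 0.93). At ponatinib 10 mg/kg against 3 mg/kg none passed, where 5.78% of all genes did, and none had an unadjusted p below 0.05. Clec4f differed by 0.04 (-0.33 to 0.41), Cd5l by -0.32 (-0.77 to 0.13) and Marco by 0.31 (-1.05 to 1.68). At an adjusted p below 0.05 none of the 10 genes was called between the doses of nilotinib or of ponatinib, where 0.00% and 1.39% of all genes were. DESeq2 also called none of the 10 genes between the doses of either drug. The intervals of Marco were wider than those of every other gene except Cd163.

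The other pairs differ in nominal dose as well as in drug. Imatinib 150 mg/kg had lower levels than nilotinib 30 mg/kg in 4 of the 10 genes, where 4.56% of all genes tested were lower. Cd5l differed by -1.41 (edgeR adjusted p = 9.99e-05) with all 8 imatinib mice below every nilotinib mouse. Folr2 differed by -1.13 (adjusted p = 0.00716) and Msr1 by -0.96 (adjusted p = 0.0374), each with 7 of 8 imatinib mice below every nilotinib mouse. The difference of Adgre1 was -1.11 (adjusted p = 0.0693), with 6 of 8 mice below, and it did not pass without the 5 libraries over 12% of reads outside genes. The first 3 calls held under all 9 settings. Vsig4, at -0.60, did not pass, but did under 5 of the 9. In the same comparison all 5 pan-leukocyte markers were lower, with a median of -1.28 and a median summed level of 90.3 against 194 CPM, and so were 13 of the 20 other resident macrophage genes described below and 1 of 9 sinusoidal endothelial markers, Stab2. Their part in the differences of the 10 genes was not tested.

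Against ponatinib 10 mg/kg, imatinib had lower levels of Marco, Cd5l and Folr2, which is 3 of 10 genes where 1.88% of all genes were lower. Marco differed by -3.66 (SE 0.78, edgeR adjusted p = 0.00488), Cd5l by -0.82 (adjusted p = 0.0516) and Folr2 by -0.83 (adjusted p = 0.132). The ranges overlapped in all 3 genes, and none of the 3 passed the exact permutation test (p = 0.0298, 0.0723 and 0.0334). None of the 5 pan-leukocyte markers passed here, with a median of -0.62. Of 9 sinusoidal endothelial markers 5 were higher with imatinib, 1 of them at an adjusted p below 0.05. In this comparison 585 of the 14314 genes tested passed in either direction. Ponatinib 10 mg/kg against nilotinib 30 mg/kg gave 1 lower gene where 2.86% of all genes were lower, and 1 higher gene where 2.78% were higher. Mrc1 differed by -0.67 (edgeR adjusted p = 0.0286), with 7 of 8 mice below every nilotinib mouse, and held under all 9 settings. Here too 7 of 9 sinusoidal endothelial markers were lower and all 9 values were negative, with a median of -0.72 and a summed level of 97.5 to 298 against 291 to 444 CPM, and their part in the Mrc1 difference was not tested. Marco differed by 2.30 (adjusted p = 0.0818) and did not pass the exact permutation test (p = 0.204). At an adjusted p below 0.05, 1 gene differed between ponatinib and nilotinib at 10 mg/kg, where 2.06% of all genes did, and 3 between imatinib and nilotinib 30 mg/kg, where 3.59% did. Against ponatinib 10 mg/kg 1 gene differed with imatinib, where 1.08% of all genes did, and 1 with nilotinib 30 mg/kg, where 1.88% did.

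Across mice the genes varied together to different degrees. Each group's mean was subtracted from log2 CPM, and each gene was set against Clec4f, the gene most restricted to Kupffer cells, and against Stab2, a receptor of sinusoidal endothelium, in all 56 mice. These 19 relations were tested by permutation within groups with Benjamini-Hochberg adjustment. Vsig4 followed Clec4f most closely, with Pearson r = 0.74 and Spearman rho = 0.65 (permutation p = 1e-05 for each, the smallest these permutations give, adjusted p = 6.33e-05 and 9.5e-05). Without the 2 mice farthest from the median of Clec4f r was 0.66, and within the 7 groups it ran from 0.51 to 0.85. Folr2 (r = 0.67, rho = 0.61) and Timd4 (r = 0.66, rho = 0.62) came next, with permutation p-values of 2e-05 at most.

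Cd5l followed Clec4f at r = 0.55 (rho = 0.46), Marco at 0.54 (rho = 0.48) and Mrc1 at 0.49 (rho = 0.49), with adjusted permutation p of 0.00396 at most. Within the 7 groups r ran from -0.24 to 0.87 for Cd5l and from -0.01 to 0.67 for Marco, each above 0 in 6 groups, and from 0.08 to 0.89 for Mrc1. For Adgre1 r was 0.47 (adjusted permutation p = 0.00724) and rho 0.32 (adjusted p = 0.0715), and for Cd163 r was 0.42 (adjusted p = 0.0132) and rho 0.28 (adjusted p = 0.113), so only the Pearson value passed in both. Within groups r ran from -0.30 to 0.86 for Adgre1, above 0 in 4 of 7 groups, and from -0.32 to 0.75 for Cd163, above 0 in 5. Msr1 did not follow Clec4f detectably (r = 0.25, permutation p = 0.0992, rho = 0.15, p = 0.285), with r above 0 in 3 of 7 groups. Without the 2 farthest mice r was 0.40 for Cd5l, 0.46 for Marco, 0.44 for Mrc1, 0.37 for Adgre1, 0.32 for Cd163 and 0.09 for Msr1. Against Stab2 only Mrc1 passed, with r = 0.47 (adjusted permutation p = 0.00692) and rho = 0.46 (adjusted p = 0.00396), and 0.50 without the 2 mice farthest in Stab2. The other 9 genes had r from -0.10 to 0.23 with Stab2, all with permutation p-values of 0.0755 or more for r and rho.

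**Figure D3:**
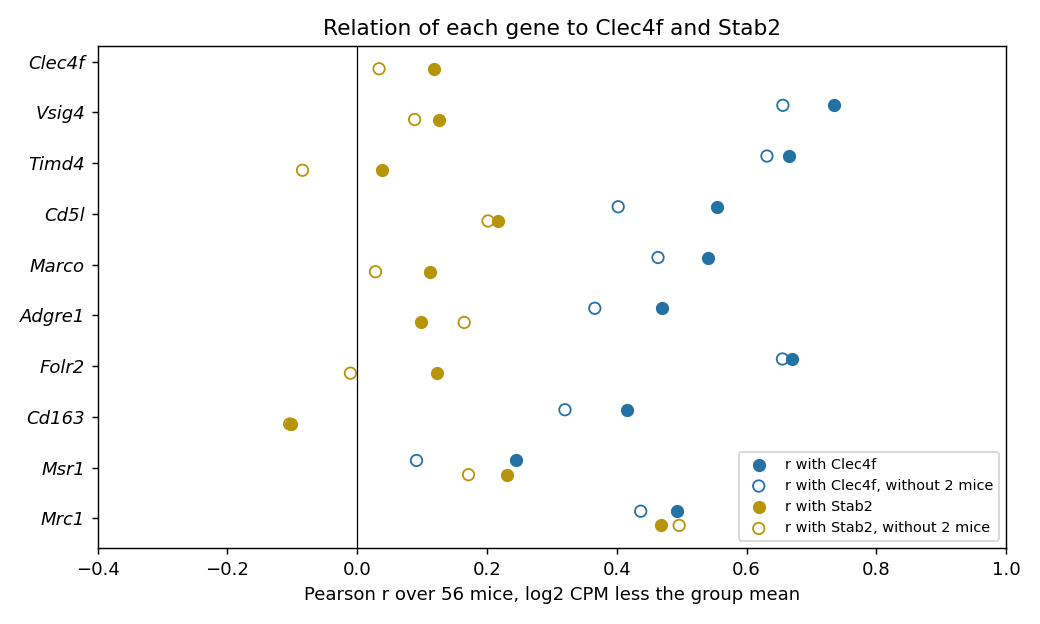
Pearson r of each gene with Clec4f (blue) and with Stab2 (yellow) over 56 mice, on log2 CPM less the group mean, with open points for r without the 2 mice farthest from the median. Vsig4 has the highest r with Clec4f, 0.74, and Mrc1 is the gene with the highest r with Stab2, 0.47.

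All 45 pairs of the 10 genes were then compared in the same way, a step chosen after the data were seen. The median r was 0.42, 44 pairs had r above 0, and 29 passed at an adjusted permutation p below 0.05. Timd4 and Marco were the closest pair, with r = 0.78 and rho = 0.79 (adjusted permutation p = 5.63e-05 and 6.43e-05), and r was 0.78 without the 2 farthest mice and 0.28 to 0.94 within the 7 groups. Cd5l and Adgre1 reached r = 0.78 and rho = 0.68, and 0.74 without the 2 farthest mice. The lowest value was that of Cd163 and Msr1, with r = -0.08 (permutation p = 0.572) and rho = -0.12 (p = 0.403). All genes of a mouse share its library and its piece of liver.

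**Figure D4:**
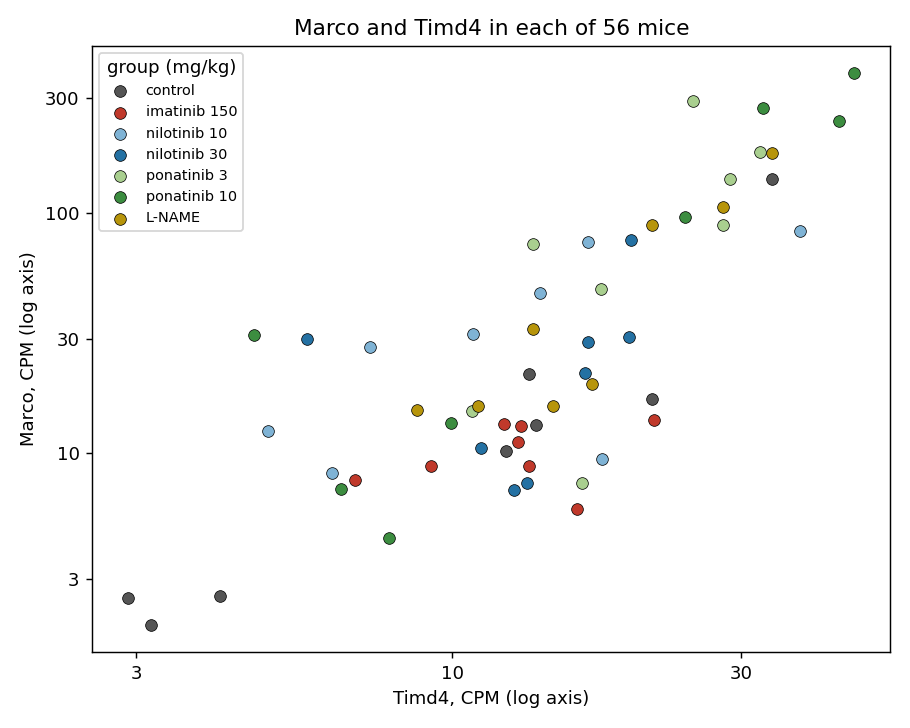
CPM of Marco against CPM of Timd4 in each of the 56 mice, both on log axes, colored by group with doses in mg/kg. The 3 control mice lowest in Marco, at 1.94 to 2.55 CPM, are the 3 points at the lower left, and the highest mouse, at 380 CPM, is one given ponatinib 10 mg/kg.

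Other macrophage genes were described from lists to place the 10 genes. Of 20 other resident macrophage genes, 9 fell and 1 rose with imatinib, where 6.06% of all genes tested fell and 6.85% rose. Their median log2 fold change was -0.60. Mpeg1, a pore-forming protein of phagosomes, fell by 1.62 on the log2 scale (edgeR adjusted p = 4.21e-06), the lysosomal protease Ctss by 1.58 (adjusted p = 0.000144) and the transcription factor Zeb2 by 1.09 (adjusted p = 0.00112). Spi1, which encodes PU.1, was among the 9. Fcna, a ficolin secreted by Kupffer cells, rose by 0.78 (adjusted p = 0.0116). With ponatinib 10 mg/kg, where 6.85% of all genes tested fell, 5 of the 20 did, among them Mpeg1 by 0.86 (adjusted p = 0.00727) and Axl, a receptor tyrosine kinase for apoptotic cells, by 0.78 (adjusted p = 0.0109), and Fcna rose by 0.65 (adjusted p = 0.0311). None of the 20 fell with nilotinib, ponatinib 3 mg/kg or L-NAME. With nilotinib 10 and 30 mg/kg, ponatinib 3 mg/kg and L-NAME 3, 3, 1 and 2 of the 20 rose. The share of all genes tested that rose there was 2.32%, 4.11%, 1.40% and 6.66%. Fcna was among the genes of the 20 that rose in both nilotinib groups and with L-NAME.

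Of the growth factor axis, Csf1r fell with imatinib by 0.76 (edgeR adjusted p = 0.0386), from a median of 113 CPM in control mice to 68.3. Its ligand Csf1 fell with ponatinib 10 mg/kg by 0.78 (adjusted p = 0.0463), from a median of 26.6 CPM to 16.7, and the second ligand, Il34, did not pass in any group. Of all genes tested, 6.06% fell with imatinib and 6.85% with ponatinib 10 mg/kg. With nilotinib 10 and 30 mg/kg, ponatinib 3 mg/kg and L-NAME 3.65%, 5.24%, 1.74% and 7.29% fell. With ponatinib 3 and 10 mg/kg and L-NAME 1.40%, 8.19% and 6.66% rose. Of 14 other scavenger receptors, which include the endothelial Stab2, 12 passed the filter on low counts. With imatinib 5 fell, among them the endocytic receptor Lrp1 by 0.69 (adjusted p = 0.000677) and Cxcl16, which takes up oxidized lipoprotein, by 1.09 (adjusted p = 0.00265). With ponatinib 10 mg/kg 5 fell, among them Cd36, the fatty acid and oxidized lipoprotein receptor, by 0.60 (adjusted p = 0.00128), and 1 rose. With nilotinib 10 and 30 mg/kg, ponatinib 3 mg/kg and L-NAME 1, 2, 1 and 3 of the 12 fell, and 1 rose with L-NAME. Lrp1 fell in both nilotinib groups too, and by 0.51 with ponatinib 10 mg/kg and 0.52 with L-NAME. Cd36 also fell with L-NAME, by 0.56 (adjusted p = 0.00276). Of 8 markers of lipid-associated macrophages 4 fell with imatinib, with a median of -1.22. Gpnmb fell by 4.74 (adjusted p = 4.07e-05) and Trem2, a lipid-sensing receptor, by 2.02 (adjusted p = 0.00271). With ponatinib 10 mg/kg 3 fell, Gpnmb by 4.40 among them (adjusted p = 7.46e-05), and 1 rose, Fabp5 by 1.70 (adjusted p = 0.000661). With ponatinib 3 mg/kg 1 fell, Gpnmb, and 1 rose, Fabp5.

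**Figure D5:**
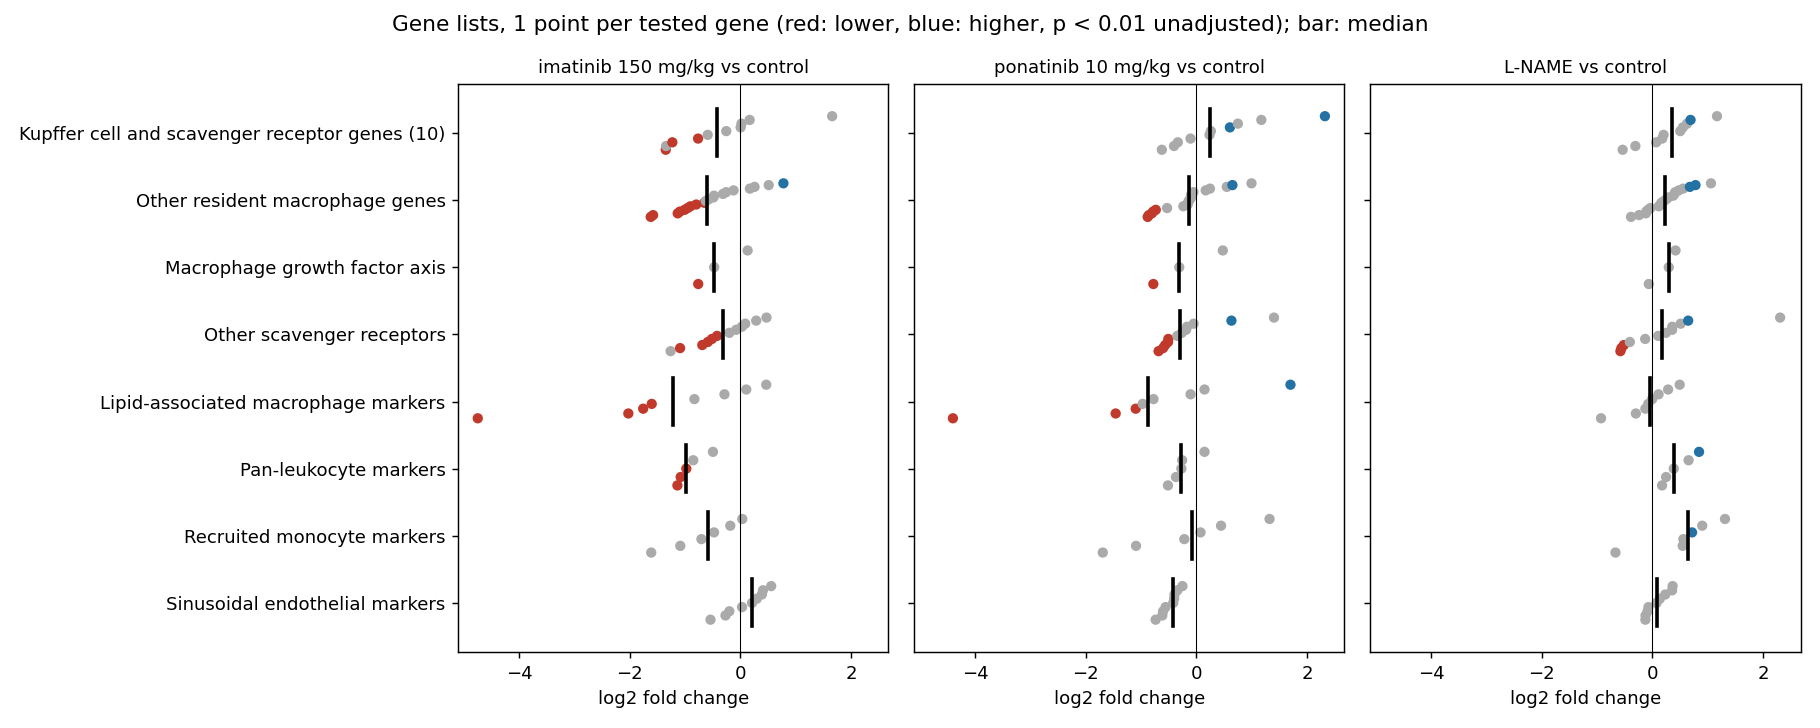
Log2 fold change of every tested gene of 8 lists with imatinib, ponatinib 10 mg/kg and L-NAME against control, with red for genes that fell, blue for genes that rose and a bar at the list median. The median of the 20 other resident macrophage genes is -0.60 with imatinib, and that of the 8 lipid-associated markers is -1.22.

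Markers of other cells moved with some of these groups. With imatinib, 6.06% of all genes tested fell and 6.85% rose. Of 5 pan-leukocyte markers 3 fell with imatinib, Ptprc by 0.98 (edgeR adjusted p = 0.00762), Laptm5 by 1.14 (adjusted p = 0.00128) and Cd53 by 1.08 (adjusted p = 0.0175), and their summed level was 56.9 to 122 CPM against 102 to 234 in control mice. None of the tested markers of monocytes, lymphocytes or neutrophils passed with imatinib, and of the dendritic cell markers Xcr1 fell. The median log2 fold change of the monocyte markers was -0.59, with 5 of 6 values negative. Medians were 0.12 for lymphocyte, -0.15 for neutrophil and -0.22 for dendritic cell markers. Summed levels with imatinib were 15.1 to 37.2 CPM for monocyte, 5.71 to 13.9 for lymphocyte, 2.99 to 15.5 for neutrophil and 10.4 to 35.2 for dendritic cell markers, against 22.1 to 56.7, 6.06 to 14.2, 5.08 to 14.1 and 15.9 to 29.7 in control mice. The neutrophil marker Ly6g was at 0 in both groups. None of 9 sinusoidal endothelial markers passed with imatinib, with a summed level of 295 to 468 CPM against 169 to 525. With ponatinib 3 and 10 mg/kg 4 of 5 erythroid markers rose, where 1.40% and 8.19% of all genes tested did. With nilotinib 30 mg/kg 3 of 5 rose, where 4.11% did. All that rose were globin genes. At an adjusted p below 0.05, 4 were called with ponatinib 10 mg/kg and 0 with ponatinib 3 mg/kg or nilotinib 30 mg/kg. The summed level of the 5 erythroid markers was 190 to 1331 and 162 to 1128 CPM with ponatinib 3 and 10 mg/kg. It was 242 to 721 with nilotinib 30 mg/kg, against 149 to 420 in control mice. Of 6 hepatocyte markers 1 fell and 2 rose with imatinib, of 8 stellate cell markers 1 fell and 1 rose, and none of 4 cholangiocyte markers passed. With the other treatments, hepatocyte markers moved in both directions, with 2 fallen and 3 risen of 6 with nilotinib 30 mg/kg and with L-NAME, 1 fallen and 3 risen with ponatinib 10 mg/kg, 1 fallen and 2 risen with nilotinib 10 mg/kg, and 1 risen with ponatinib 3 mg/kg. The values of all 9 sinusoidal endothelial markers were negative with ponatinib 3 and 10 mg/kg, with medians of -0.58 and -0.42. At 3 mg/kg 2 of them, the endothelial receptors Kdr and Flt4, passed, by -0.83 and -0.74, where 1.74% of all genes tested fell. None of the 9 was called there at an adjusted p below 0.05. The summed level of the 9 markers was 126 to 301 and 97.5 to 298 CPM with ponatinib 3 and 10 mg/kg. With nilotinib 10 and 30 mg/kg and L-NAME none of them fell, and Clec4g rose with nilotinib 30 mg/kg. With L-NAME the leukocyte marker Coro1a rose by 0.84 (adjusted p = 0.0248) and the monocyte marker Plac8 by 0.72 (adjusted p = 0.0552). The part of these cells in the levels of the 10 genes was not tested.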

How the data were processed

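Liver mRNA of 56 mice (8 per group) was selected by poly(A), prepared with the NEBNext Ultra kit and sequenced on a NextSeq 500. The authors deposited raw read counts per Ensembl gene for each mouse. The submitters' processing notes name TopHat2 2.0.14, Bowtie2 2.1.0, SAMtools 0.1.18 and HTSeq 0.6.1p1 and the build GRCm38. The L-NAME group is not described in the study's methods. In each file 5 summary lines that name no gene were left out of library sizes and tests, and reads on no gene made up 7.55 to 16.8% of uniquely aligned reads. Symbols were taken from GENCODE vM21, which matched 44585 of 45513 identifiers. No 2 libraries held identical counts.

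All 56 mice were fitted together with edgeR 4.0.16 (R 4.3.3, TMM factors, filterByExpr, quasi-likelihood test), which left 14314 genes, all 10 members among them. Genes were called at an unadjusted p below 0.01, as in the study's methods, with Benjamini-Hochberg adjusted p over all genes beside it. DESeq2 1.42.0 was an alternative. Exact permutation tests were two-sided on log2(CPM + 0.5), correlations used 100000 permutations, and tables and tests were made with Python 3.11.15 and scipy 1.17.1. The code was tested on simulated data. Named genes were all 10 members, 8 fixed context genes (Csf1, Il34, Csf1r, Stab2, Lyve1, Clec4g, Ptprc and Alb) and in each other list up to 3 genes with the lowest p below 0.01 with imatinib, ponatinib 10 mg/kg or L-NAME; Spi1, Ly6g, Kdr and Flt4 were named after their values were seen. The members and lists were chosen with earlier results of these data known. The intervals and the spread between mice rest on 8 mice per group, and a read count of 3 or fewer, as in Cd163, carries little precision.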

Additional observations from a re-analysis of the deposited data

Results flagged for a closer look

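In 3 of the 70 combinations of gene and group, 1 mouse lay so far from the other 7 that its gap to the nearest of them exceeded Dixon's 95% critical value of 0.526 of the group's range. Chance flags about 1 in 20 such groups, or 3.5 of 70, so this number is not above chance. Timd4 was at 5.746 CPM in library 54 of nilotinib 30 mg/kg, below the next mouse at 11.1 CPM. Adgre1 was at 4.644 CPM in library 27 of imatinib, against 14.2 CPM in the next mouse. Folr2 was at 13.71 CPM in library 47 of ponatinib 3 mg/kg, against 23.7 CPM in the next mouse. Each was the lowest mouse of its group. Marco in control library 52, at 139 CPM on a linear scale, is described above and was not among these 3 on the log2 scale.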

How the results depend on the processing

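No call changed its direction under any alternative. The number of members called stayed within 1.5 times in all 12 comparisons with RLE factors, with DESeq2, with no filter on low counts, without the library with the largest total count and, chosen after seeing the data, without the 5 libraries over 12% of reads outside genes. At an adjusted p below 0.05 it was 0 in place of 2 for nilotinib 10 mg/kg and likewise for ponatinib 3 mg/kg against control, 1 in place of 2 for ponatinib 10 mg/kg against nilotinib 10 and 30 mg/kg and 1 in place of 3 for imatinib against ponatinib 10 mg/kg. When the covariate was the share of reads outside genes, it was 1 in place of 2 with nilotinib 10 mg/kg against control and for ponatinib against nilotinib 10 mg/kg. In fits of the compared groups alone it was 2 in place of 1 with nilotinib 30 mg/kg and with L-NAME, 1 in place of 2 with ponatinib 3 mg/kg, 0 in place of 2 with ponatinib 10 mg/kg, each against control, 1 in place of 2 for ponatinib against nilotinib 10 mg/kg and 7 in place of 4 for imatinib against nilotinib 30 mg/kg. The cause was not tested. Without control library 52, also chosen after seeing the data, 3 members in place of 1 were called with L-NAME. The exact permutation test per gene, likewise chosen later, called 11 single values no longer and 1 more. Cd163 gave no value in some fits of 2 groups, where it did not pass the filter. No paired analysis was possible because the library numbers in the titles are unique across the series. Depth limits Cd163 most, with a median of 8.5 reads.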
